A study of Homo sapiens with 6 samples.

Results

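Cyclins, cyclin-dependent kinases (CDKs) and CDK inhibitors were examined in cells labelled OVCAR3 and transfected with shNC or shNUF2. The group comprised every gene whose symbol is CCN followed by a letter and an optional number, CDK followed by a number, CDKN followed by 1, 2 or 3 and a letter from A to D, or CDKN3. This rule found 54 of the 19973 genes in the deposited table, namely 27 cyclins, 19 kinases and 8 inhibitors. RNA-seq was run on 3 libraries per group. OVCAR3 is an established human ovarian carcinoma line. The control cells (shNC, genotype given as WT) received a plasmid with a control hairpin RNA, and the knockdown cells (shNUF2, genotype given as NUF2 knockdown) received the same plasmid type with a hairpin against NUF2. NUF2 is a subunit of the NDC80 complex, which anchors spindle microtubules to the kinetochore. Both groups therefore carry a U6-driven hairpin vector with a puromycin resistance gene, delivered with Lipofectamine, and the knockdown rests on 1 hairpin. The study describes stable knockdown lines of OVCAR3, and whether the sequenced cells were these is not given in the sources used here. The time from transfection to RNA extraction and any selection before it are not given in the sources used here, and neither is whether the libraries of a group came from separate cultures, so the p-values measure only the spread between these libraries.

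Cyclins are the regulatory subunits that switch on CDKs. In G1 phase, mitogens raise the D-type cyclins, which bind CDK4 and CDK6 and start the phosphorylation of the retinoblastoma protein. E-type and A-type cyclins with CDK2 then carry the cell into and through S phase, and A-type and B-type cyclins with CDK1 bring it into mitosis. The INK4 inhibitors bind CDK4 and CDK6 themselves, whereas the CIP/KIP inhibitors bind cyclin-CDK complexes. A separate branch of the family (CDK7, CDK8, CDK9, CDK12, CDK13 and their cyclins) acts on RNA polymerase II and RNA processing rather than on the order of cell cycle phases.

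The libraries held between 13057534 and 16995452 counted reads. NUF2 itself was covered by 903, 1096 and 1092 reads in shNC versus 281, 290 and 384 in shNUF2. The groups did not overlap, and NUF2 fell by 1.51 on the log2 scale (SE 0.077, adjusted p = 2.17e-15). Of the epithelial markers, KRT7 and KRT8 were abundant, with mean levels of 169 and 49.5 FPKM in the shNC libraries, and KRT18 was also well expressed. FPKM is the read count scaled to the gene length in kilobases and to the library total. WT1, CDH1, PAX8, EPCAM and MUC16 were low, with shNC means of 0.00241, 0.230, 1.39, 1.41 and 1.12 FPKM, so that WT1 and CDH1, commonly found in ovarian carcinoma cells, were at or near 0 in the libraries labelled OVCAR3. These markers therefore do not bear out the labelled identity of the cells, which was not checked in another way. The 8 epithelial markers summed to between 239 and 275 FPKM with shNC and between 284 and 312 FPKM with shNUF2. Of all genes tested 33.9% were higher and 33.8% lower at an adjusted p under 0.05. Of these markers 7 were tested, 4 were higher and 2 lower, with KRT8 at a log2 fold change of 1.04 and KRT7 and MUC16 at -0.22 and -0.75. Of the 5 fibroblast markers 2 were tested and 1 (COL1A1) was lower, with sums of 9.11 to 9.78 FPKM with shNC and 6.77 to 7.61 FPKM with shNUF2. Of the 5 blood cell markers 1 was tested and was higher, of the 4 endothelial markers 3 were tested and 2 were higher, and HBB was at 0 in every library. Blood cell and endothelial markers summed to at most 1.81 and 0.982 FPKM in any library, were higher in every shNUF2 library than in any shNC library, and their part in the results was not tested. In bulk RNA, fewer cells of a type and less RNA per cell cannot be told apart.

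Of the 54 genes, 48 had enough reads to be tested. A gene passed the test when its adjusted p was under 0.05 (edgeR quasi-likelihood test, Benjamini-Hochberg adjustment over the 12874 genes tested). Of the 48, 20 were higher with shNUF2, 17 were lower and 11 did not pass. The shares of all genes tested that passed in these directions were 33.9% and 33.8%, so that a call by itself does not set these genes apart from the rest of the transcriptome. The median log2 fold change was 0.12 over the 48 genes and -0.013 over all genes tested, and the median size of the change was 0.31 and 0.38. The 2 groups of libraries did not overlap for 37 of the 48 genes, 22 higher and 15 lower, against 35.2% and 35.4% of all genes tested. A log2 fold change beyond 1 with an unadjusted p under 0.05 was reached by 3 members that were higher (CDKN2D, CCNP and CDK14), against 9.41% of all genes. With limma on log2(FPKM + 1) only CDKN2D reached it, with CCNP at 0.84 and CDK14 at 0.47, and the count over all genes went from 1212 to 430. CDK14 was also under 1 with library totals only (0.99) and with limma on log2(FPKM + 0.1) (0.91), and without shNC library 1 or 2 or shNUF2 library 1. In the other direction edgeR, DESeq2 and limma each placed 0 members past this limit, against 4.16% of all genes by edgeR, although 17 members were lower at an unadjusted p under 0.05. Of the 8 cell cycle cyclins tested 2 rose and 3 fell, and of the 8 inhibitors 5 rose and 3 fell. Of the 4 cell cycle kinases 2 fell, and 0 rose by edgeR as described, DESeq2 or limma (0 by edgeR at an unadjusted p under 0.05), while CDK1 was called higher by edgeR with genes kept at 1 CPM or more in every library.

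**Figure D1:**
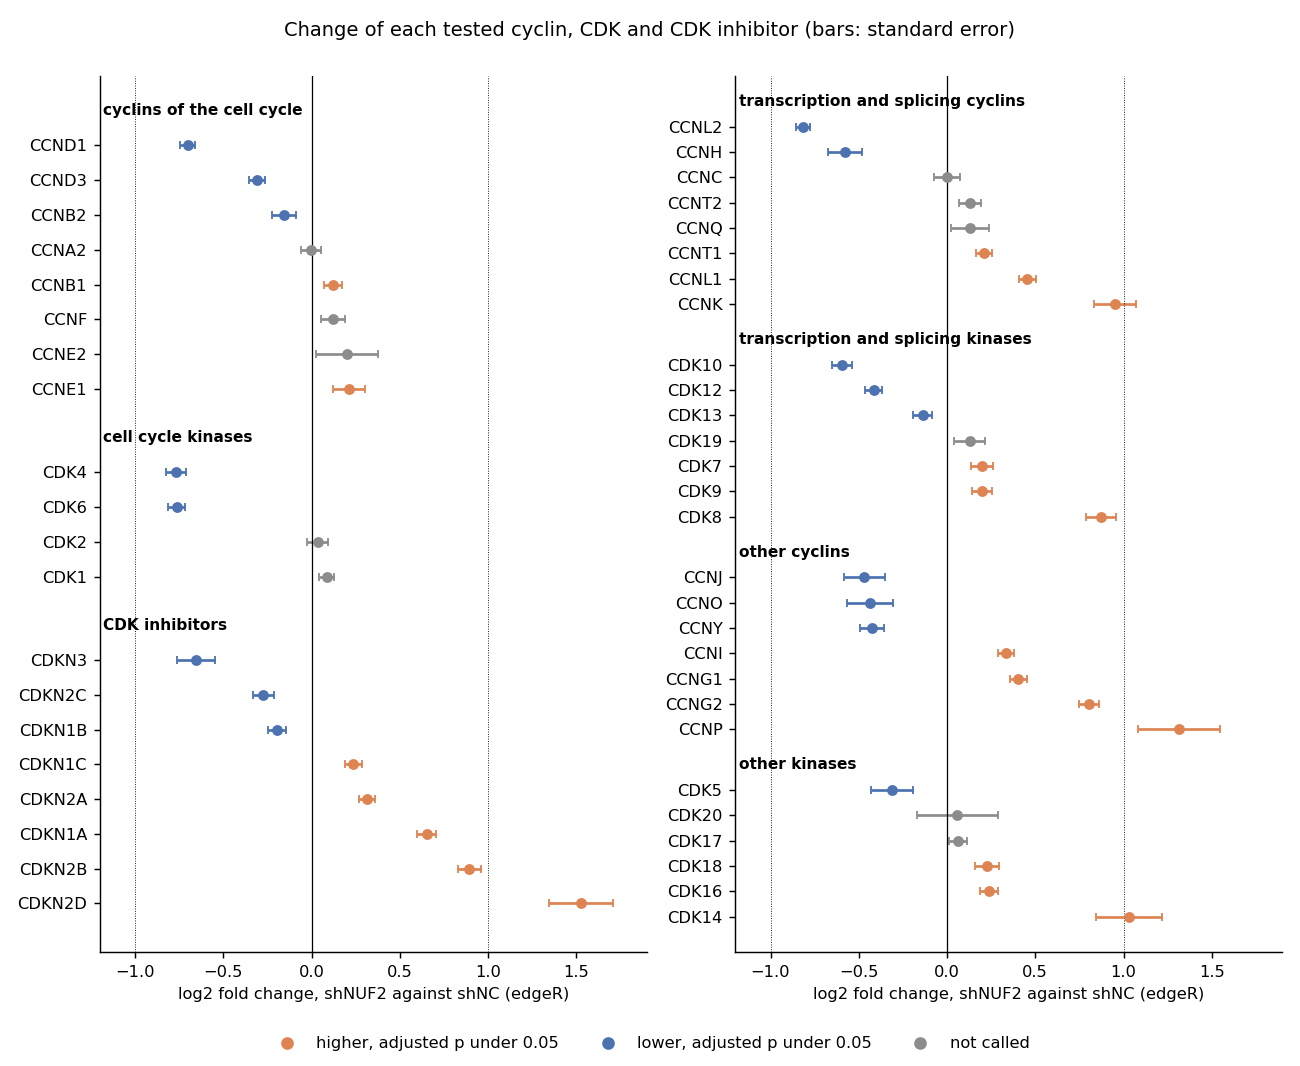
Points give the edgeR log2 fold change of each tested gene, shNUF2 against shNC, grouped by role, with bars for 1 standard error and dotted lines at a log2 fold change of 1 in either direction. CDKN2D lies farthest to the right at 1.53, and CCNL2, CDK4, CDK6 and CCND1 lie farthest to the left, between -0.81 and -0.70.

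CCND1 and CCND3, the expressed D-type cyclins, and their kinases CDK4 and CDK6 were lower in every shNUF2 library than in any shNC library. CCND1, which encodes cyclin D1 (ENSG00000110092, chr11:69641156-69654474), had 3488, 3854 and 4129 reads under shNC against 1998, 1976 and 2205 under shNUF2. Its normalized level was 242 ± 2.81 CPM (counts scaled to the library total after TMM normalization, mean ± SD, n = 3) with shNC and 149 ± 2.79 CPM with shNUF2, a ratio of 0.615 (95% interval 0.578 to 0.654). The log2 fold change was -0.70 (SE 0.043, adjusted p = 1.13e-13). The highest shNUF2 library thus lay far below the lowest shNC library. CCND3, encoding cyclin D3, which binds the same kinases, changed less. It was covered by 1845, 2182 and 2321 reads in shNC versus 1414, 1428 and 1643 in shNUF2. The groups did not overlap after normalization, with 134 ± 3.53 and 108 ± 2.70 CPM, and CCND3 fell by 0.31 on the log2 scale (SE 0.047, adjusted p = 2.25e-06). CCND2, the remaining D-type cyclin, was close to silent. Its reads numbered 0, 0 and 1 with shNC and 2, 0 and 0 with shNUF2, at or under a floor of 3 reads per library, so no fold is given.

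CDK4 (ENSG00000135446, chr12:57747727-57756013) gathered 1449, 1548 and 1767 reads in shNC and 813, 792 and 840 in shNUF2. Its normalized level was 101 ± 3.17 CPM with shNC and 59.0 ± 2.77 CPM with shNUF2, and the log2 fold change was -0.77 (SE 0.055, adjusted p = 2.40e-12). The groups were widely separated. CDK6 (ENSG00000105810, chr7:92604921-92836573) had 3516, 4533 and 4608 reads under shNC against 2087, 2017 and 2412 under shNUF2. Its level fell from 266 ± 18.2 CPM to 157 ± 3.10 CPM, a log2 fold change of -0.76 (SE 0.049, adjusted p = 2.10e-13), again without overlap. The ratios of the 2 kinases were close, 0.587 for CDK4 (95% interval 0.542 to 0.635) and 0.589 for CDK6 (95% interval 0.549 to 0.631). CDK4 and CDK6 summed to 54.9 ± 1.20 FPKM with shNC and 31.5 ± 0.729 FPKM with shNUF2, and the D-type cyclins to 75.0 ± 0.582 and 49.4 ± 1.29 FPKM. Per length, CDK4 supplied 59.9% ± 2.28 of the kinase sum with shNC and 59.8% ± 1.62 with shNUF2, so that the share differed by less than the spread between libraries. In the deposited positions CCND1 overlaps LTO1, and CDK4 overlaps TSPAN31 and MARCHF9, all on the opposite strand. The library kit keeps the strand, but whether the counting used it is not given in the sources used here, so reads of these neighbours cannot be told apart with certainty.

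The inhibitors of the same kinases moved in both directions. The INK4 inhibitor CDKN2B (ENSG00000147883, chr9:22002903-22009305) was covered by 655, 700 and 766 reads in shNC versus 1223, 1072 and 1151 in shNUF2. Its normalized level rose from 44.8 ± 1.16 to 83.2 ± 7.13 CPM, a log2 fold change of 0.89 (SE 0.064, adjusted p = 2.60e-12). The lowest shNUF2 library stood well above the highest shNC library. CDKN2D (ENSG00000129355, chr19:10566460-10569059) showed the largest relative change of all 48 genes tested, from a low level. It gathered 45, 48 and 59 reads in shNC and 121, 131 and 131 in shNUF2, or 3.20 ± 0.215 and 9.26 ± 0.726 CPM. The log2 fold change was 1.53 (SE 0.18, adjusted p = 3.04e-08), a ratio of 2.89 (95% interval 2.23 to 3.72), without overlap.

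CDKN2A, which encodes an INK4 protein and, in another reading frame, a regulator of p53 stability, had 2255, 2399 and 2726 reads under shNC against 2588, 2455 and 2999 under shNUF2. After normalization every shNUF2 library was above every shNC library, 193 ± 5.40 against 156 ± 4.86 CPM, a log2 fold change of 0.31 (SE 0.045, adjusted p = 9.39e-07). The gene counts do not separate its reading frames. CDKN2C was the INK4 gene that went the other way. It was covered by 860, 1062 and 1123 reads in shNC versus 718, 687 and 798 in shNUF2, and it fell by 0.27 on the log2 scale (SE 0.060, adjusted p = 2.73e-04), with no overlap between 64.1 ± 3.16 and 53.1 ± 0.205 CPM. CDKN2A and CDKN2B are neighbours on chromosome 9, and the deposited positions place the gene AL359922.1 across both on the opposite strand.

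Among the CIP/KIP inhibitors, CDKN1A, the best known transcriptional target of p53, gathered 4599, 4300 and 4763 reads in shNC and 6336, 5758 and 6787 in shNUF2. Its level rose from 289.8 ± 29.4 to 455 ± 13.9 CPM without overlap, a log2 fold change of 0.65 (SE 0.053, adjusted p = 2.58e-11). CDKN1C changed less in the same direction. It had 2120, 2461 and 2856 reads under shNC against 2457, 2500 and 2684 under shNUF2, which gave 156 ± 8.70 and 184 ± 7.18 CPM and a log2 fold change of 0.24 (SE 0.049, adjusted p = 1.23e-04). CDKN1B, which holds CDK2 complexes inactive in resting cells, was lower. It was covered by 2196, 2340 and 2356 reads in shNC versus 1725, 1578 and 1991 in shNUF2, and it fell by 0.20 on the log2 scale (SE 0.051, adjusted p = 0.00144). The groups of CDKN1C and of CDKN1B each stood apart after normalization.

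**Figure D2:**
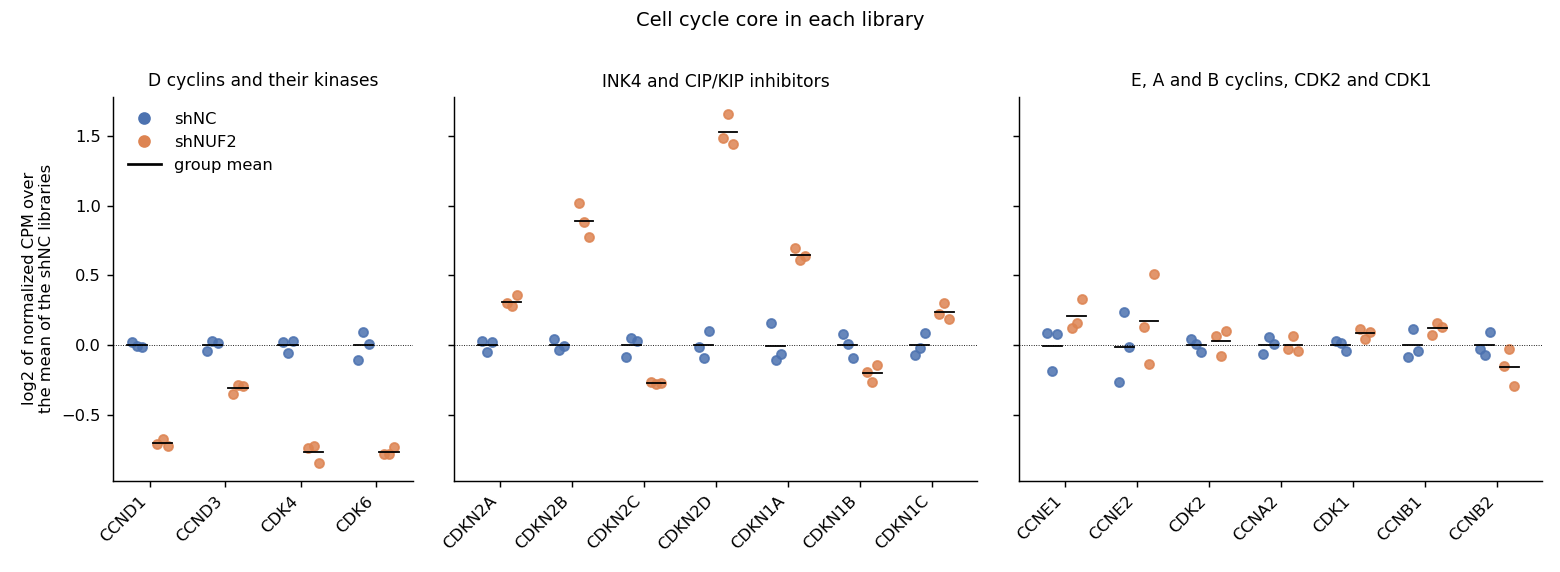
Each point is 1 library, with its normalized CPM divided by the mean of the 3 shNC libraries on a log2 axis, and black lines mark the group means. CCND1, CCND3, CDK4 and CDK6 lie below the shNC points in all 3 shNUF2 libraries, the INK4 and CIP/KIP genes split into 5 that lie above (CDKN2A, CDKN2B, CDKN2D, CDKN1A and CDKN1C) and 2 below (CDKN2C and CDKN1B), and the points of CCNE2, CDK2, CCNA2, CCNB1 and CCNB2 overlap.

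The composition of the families was compared next. Shares of the summed FPKM were compared by an exact two-sided permutation test, in which 3 libraries against 3 cannot go below p = 0.10. Cyclin D1 transcripts made up 68.7% ± 0.802 of the D-type cyclin sum with shNC and 62.5% ± 0.596 with shNUF2. CDKN1A rose from 44.6% ± 2.37 to 55.0% ± 0.887 of the CIP/KIP sum. Within the INK4 sum, CDKN2B went from 15.0% ± 0.407 to 22.1% ± 1.65 and CDKN2D from 2.85% ± 0.148 to 6.52% ± 0.559. The change of the CDKN2D share, 3.68 points, came to 1.54 points when reads were not divided by length. The share of CDKN2C went from 28.4% ± 1.51 to 18.6% ± 0.173. These 5 shares did not overlap between the groups, and each had the smallest exact permutation p of 0.10 (0.18 after Benjamini-Hochberg adjustment over the 9 shares compared), so none passed the test. CDKN2A kept the largest INK4 share in both groups, 53.7% ± 1.16 and 52.8% ± 1.67, with overlap. The INK4 genes summed to 75.6 ± 1.03 FPKM with shNC and 93.1 ± 0.422 FPKM with shNUF2, and the CIP/KIP genes to 219 ± 9.31 and 272 ± 1.58 FPKM. The ratios were 1.23 and 1.24, against 0.658 for the D-type cyclins and 0.573 for CDK4 and CDK6, and all 4 sums had the smallest exact permutation p of 0.10.

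**Figure D3:**
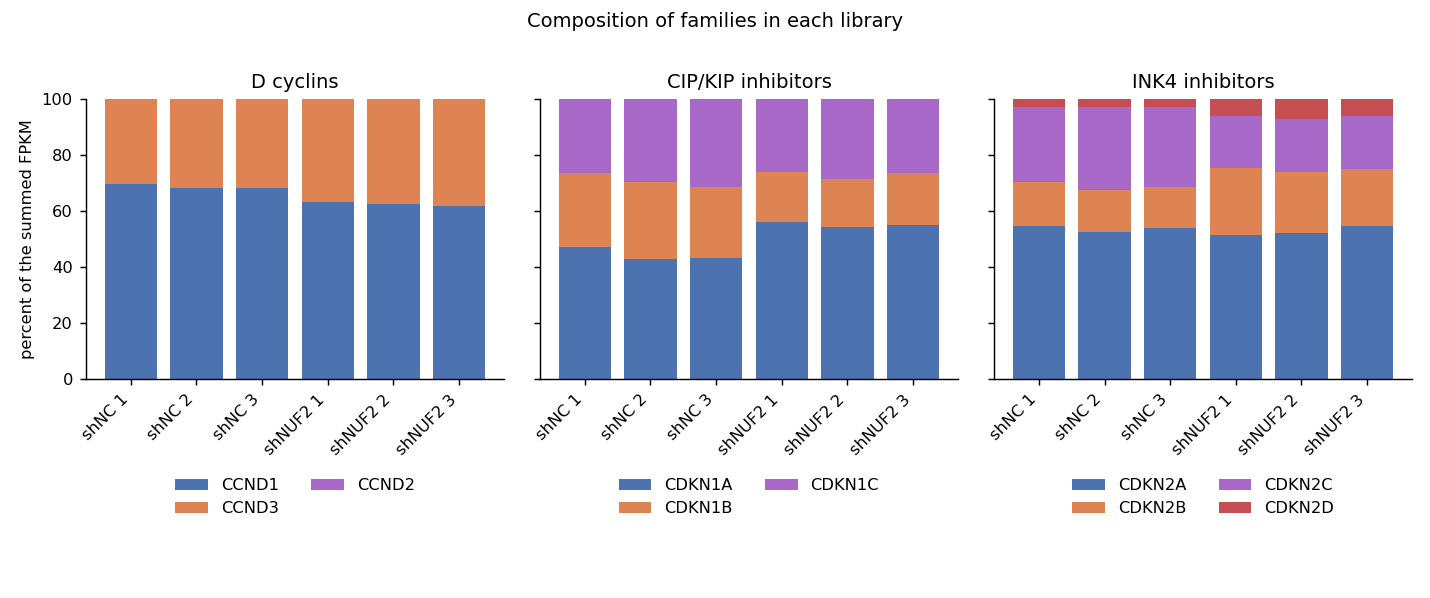
Stacked bars give the percent of the summed FPKM that each gene supplied in each library, for the D-type cyclins, the CIP/KIP inhibitors and the INK4 inhibitors. The CCND1 part is between 68.1% and 69.6% with shNC and between 61.9% and 63.1% with shNUF2, CCND2 is too small to be seen, and CDKN2D widens from a mean of 2.85% to 6.52%.

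The cyclins and kinases of the later phases were called at small fold changes or did not pass the test. CCNE1, encoding cyclin E1, gathered 435, 404 and 523 reads in shNC and 423, 418 and 545 in shNUF2. The normalized levels of 28.8 ± 3.02 and 33.3 ± 2.61 CPM did not overlap but lay close together, and the log2 fold change was 0.21 (SE 0.089, adjusted p = 0.0383). The call was lost without the second shNC library, at 0.13 (adjusted p = 0.240), and without the third shNUF2 library, at 0.14 (adjusted p = 0.212). The adjusted p of the alternatives lay between 0.0234 and 0.240. CCNE2 was the scarcer E-type cyclin. It had 85, 135 and 122 reads under shNC against 106, 85 and 154 under shNUF2, and its groups overlapped, with a log2 fold change of 0.20 (95% interval -0.16 to 0.56, adjusted p = 0.322). This value was 0.0020 without shNUF2 library 3, 0.086 without shNC library 1 and 0.33 and 0.33 without shNUF2 or shNC library 2, so that its size was not determined. CDK2, the partner of both, was covered by 1025, 1123 and 1160 reads in shNC versus 988, 860 and 1127 in shNUF2. Its groups overlapped, and the interval of its log2 fold change ran from -0.087 to 0.15, with a sign that depended on the scaling.

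CCNA2, encoding the cyclin A that serves both S phase and mitosis, gathered 988, 1205 and 1253 reads in shNC and 960, 986 and 1062 in shNUF2. The groups overlapped, the interval of the log2 fold change ran from -0.12 to 0.11, and its sign depended on the scaling. CDK1, the kinase of mitotic entry, had 2865, 3193 and 3306 reads under shNC against 2892, 2648 and 3171 under shNUF2. Its normalized levels of 198 ± 4.98 and 209.7 ± 5.50 CPM did not overlap, but the log2 fold change of 0.085 (SE 0.044) did not pass the test (adjusted p = 0.0902). The intervals of CDK2, CCNA2 and CDK1 together ran from -0.12 to 0.17 on the log2 scale and did not reach the change of -0.77 seen for CDK4. CDK1 passed the test when genes were kept only at 1 CPM or more in every library (0.11, adjusted p = 0.0324, in a range of 0.0324 to 0.332 over the alternatives). The B-type cyclins, which activate CDK1, stood near the limit of the test in opposite directions. CCNB1 was covered by 1720, 2223 and 2137 reads in shNC versus 1816, 1857 and 2110 in shNUF2, with a log2 fold change of 0.12 (SE 0.052, adjusted p = 0.0435). CCNB2 gathered 817, 891 and 1074 reads in shNC and 712, 746 and 717 in shNUF2, with a log2 fold change of -0.16 (SE 0.069, adjusted p = 0.0474). Both overlapped between the groups after normalization. The CCNB1 call was lost without shNC library 1 (0.078), shNC library 3 (0.092), shNUF2 library 2 (0.10) or shNUF2 library 3 (0.11). That of CCNB2 was lost without shNC library 3 (-0.11), shNUF2 library 1 (-0.16) or shNUF2 library 3 (-0.090), all on the log2 scale. CCNA2 overlaps EXOSC9, CDK2 overlaps PMEL, and CCNE2 overlaps INTS8 and NDUFAF6, on the opposite strand in the deposited positions.

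CCNF and CDKN3 complete this branch. CCNF, the F-box cyclin that serves as a ubiquitin ligase subunit, did not pass the test (0.12, SE 0.068, adjusted p = 0.118), although its groups did not overlap. CDKN3, a phosphatase that removes the activating phosphate of CDK2, was clearly lower. It had 305, 448 and 424 reads under shNC against 212, 222 and 218 under shNUF2. The groups did not overlap, at 15.8 ± 1.29 CPM with shNUF2 and 24.7 ± 3.29 CPM with shNC, and CDKN3 fell by 0.65 on the log2 scale (SE 0.11, adjusted p = 7.98e-06).

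The sequences before the starts of these late genes were compared. The CHR element, TTTGAA, is the motif through which DREAM and MuvB complexes time genes of G2 phase and mitosis, and it was searched on both strands in the 250 bases before each start in RefSeq (GRCh38.p14). RefSeq gave 71 promoters for 49 of the 54 genes, and 8 of them (11.3%) held TTTGAA, against 13.3% of all 35116 promoters. The 7 genes with a match were CDK1, CCNB2, CCNF, CDKN3, CCNC, CCNP and CDK19, and the last of these, from CCNC on, are not among the late genes described above. Windows of 30 bases are shown for CDK1, CCNB2, CCNF and CDKN3 because textbook accounts place these genes in 1 late programme. The motif is in capitals, each window reads 5′ to 3′ on the strand of the gene, and it lies 69 bases before the start for CDK1 (chr10:60778397-60778426), 29 for CCNB2 (chr15:59105105-59105134), 85 for CCNF (chr16:2429350-2429379) and 170 for CDKN3 (chr14:54396825-54396854), where it is read on the other strand. RefSeq gives CDK1 a pair of starts. The match shown is counted from the downstream one, which has a further match 13 bases before it, and the upstream one has a match 161 bases before it. CCNA2 and CCNB1 had no TTTGAA in these 250 bases. Other spellings of the element and bases after the start were not searched.
CDK1: ctgattggctgcTTTGAAagtctacgggct
CCNB2: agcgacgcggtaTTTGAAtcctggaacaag
CCNF: gggccgggtgcgTTTGAAaactggggtggg
CDKN3: tcccgcgcgtctTTCAAAggtcttctagga
Beside these sequences the log2 fold changes were 0.085 for CDK1, -0.16 for CCNB2, 0.12 for CCNF and -0.65 for CDKN3. The E2F motifs TTTCCCGC, TTTGGCGC and TTTCGCGC were found in 4 of the 71 promoters (5.63%) against 2.32% of all promoters, and the GC box GGGCGG in 64.8% against 42.6%. The CCAAT box was found in 38.0% against 32.0%, and TATAAA in 2.82% against 10.7%. A match of letters is a description and not a bound site.

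Per length, the 3 CIP/KIP inhibitors had the highest mean levels of the group in the shNC libraries, and the other inhibitors ranked between 9 and 43 of 54. CDKN1A ranked first at 97.9 ± 9.46 FPKM, and CDKN1C and CDKN1B followed at 63.8 ± 3.64 and 57.6 ± 3.33 FPKM. The library values of CDKN1B overlapped with those of CDKN1C above it and CCNL2 below it. CCNL2, CCNB1, CCND1 and CDK1 formed a group between 55.2 and 50.9 FPKM whose neighbours in the order overlapped. CCNE1 ranked 26 of 54 at 11.8 ± 1.19 FPKM. With shNUF2 CCND1 moved from rank 6 to rank 10 at 30.9 ± 0.791 FPKM. CDK4 moved from rank 11 to rank 19 at 18.8 ± 0.907 FPKM, and CDK6 from rank 16 to rank 25 at 12.6 ± 0.292 FPKM. CDKN2B went from rank 28 to rank 16, at 11.3 ± 0.236 FPKM with shNC and 20.5 ± 1.63 FPKM with shNUF2. Its mean thus passed those of CDK4, CDK6 and CCND3. The shNUF2 libraries of CDKN2B, 18.9 to 22.2 FPKM, overlapped with those of CDK4 (17.8 to 19.6 FPKM) and CCND3 (17.8 to 19.0 FPKM).

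**Figure D4:**
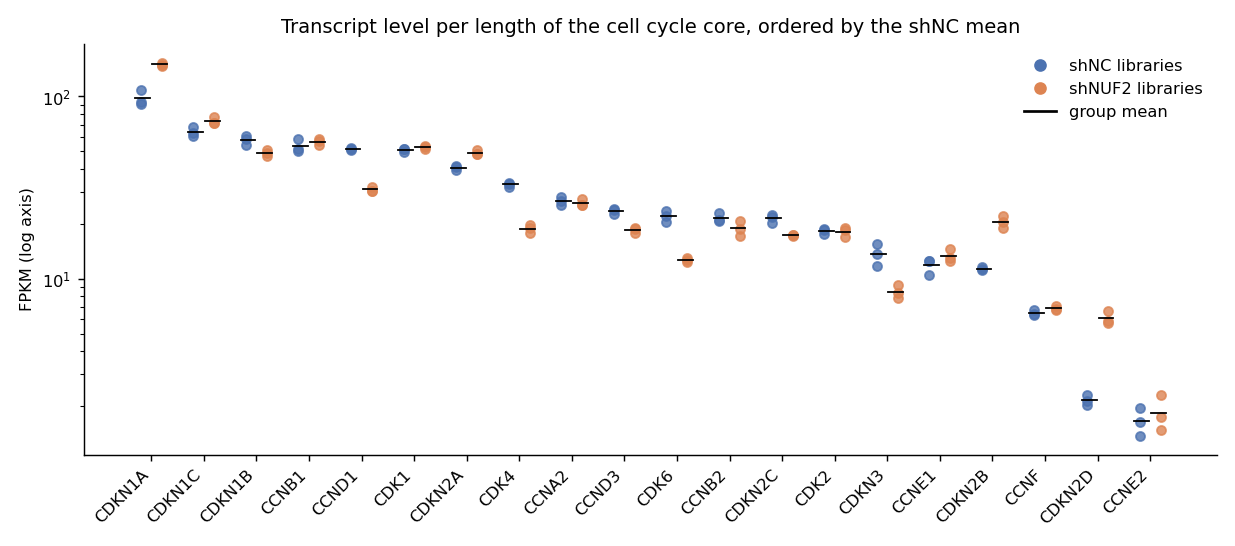
Each point is the FPKM of 1 library on a log axis, with genes ordered by the shNC mean and black lines for the group means. CDKN1A is the highest in both groups, and CDKN2D and CCNE2 are the lowest of the genes plotted, at 2.15 and 1.65 FPKM in shNC. The mean of CDKN2B rises past those of CDK4 and CDK6, while its shNUF2 libraries overlap with those of CDK4.

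Short hairpins are known to act also on transcripts that match the first bases of their guide arm, and such seed sites were sought in the members. The guide arm is shown because its seed, bases 2 to 8 in capitals, defines the site AGCAATT, provided that the guide begins at the first base of the arm. The target is the stretch of the NUF2 coding sequence at chr1:163328272-163328292 (GRCh38, GENCODE release 29, plus strand). Both are written 5′ to 3′.
shNUF2 guide arm: aAATTGCTgaatggtaagaag
NUF2 target: cttcttaccattcagcaattt
In the longest annotated 3′ UTR of each gene, the site occurred in 5 of the 48 members tested (10.4%), against 14.1% of all genes tested with such a UTR. Windows of 30 bases are shown for the tested cell cycle members that carry it (CCND2, not tested, also has a site), with the site in capitals, on the strand of the gene: CDK6 at chr7:92610193-92610222, CDKN1B at chr12:12721414-12721443, and CDKN2B at chr9:22004417-22004446 (a) and chr9:22005158-22005187 (b).
CDK6: aatactgttacAGCAATTtgaagttgatgt
CDKN1B: gcatgaagagaAGCAATTttggggaagggt
CDKN2B a: taagcaataccAGCAATTcataaaaactgc
CDKN2B b: agtggagtgagAGCAATTgtaacggttaac
The 5 members with a site did not share a direction. Their median log2 fold change was -0.20, against 0.12 for the 43 tested members without a site, and the difference was not tested. CDK6 (-0.76), CCNY (-0.42) and CDKN1B (-0.20) were lower on the log2 scale, CDKN2B with both of its sites was higher (0.89), and CCNT2 did not pass the test (0.13, adjusted p = 0.0733). No AGCAATT was found in the longest 3′ UTR of the 43 other members tested, whichever way they moved. Shorter seed matches, seed sites outside that UTR and the other hairpin arm were not searched. An effect of the hairpin on the members was not tested. Over all genes tested the median log2 fold change was -0.045 for the 1810 genes with a site and -0.0068 for the 11021 genes without. The longest 3′ UTRs had a median of 3388.5 bases with a site and 1142 bases without, so the sets differed in UTR length too.

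Among the cyclins and kinases of transcription and splicing, members were called in both directions, against 33.9% higher and 33.8% lower over all genes tested. Of the 8 cyclins 3 rose and 2 fell, and of the 7 kinases 3 rose and 3 fell. CCNL2, a cyclin of nuclear speckles that partners CDK11 in splicing (ENSG00000221978, chr1:1385711-1399335), was covered by 5334, 6014 and 6369 reads in shNC versus 2819, 2771 and 3237 in shNUF2. Its level fell from 374 ± 3.25 to 213 ± 3.10 CPM, a log2 fold change of -0.81 (SE 0.041, adjusted p = 1.73e-15), the most negative of all 48 genes. Its paralog CCNL1, with the same kind of partner, was higher at 0.46 (SE 0.048, adjusted p = 4.86e-09), and the groups did not overlap for either gene. Summed gene counts do not show which transcript isoforms changed.

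CCNK is the cyclin of CDK12 and CDK13, which phosphorylate elongating RNA polymerase II. CCNK gathered 128, 155 and 182 reads in shNC and 277, 245 and 263 in shNUF2, and its level rose from 9.76 ± 0.790 to 19.0 ± 1.54 CPM, a log2 fold change of 0.95 (SE 0.12, adjusted p = 7.99e-08) without overlap. With limma on log2(FPKM + 1) it was 0.57. Both kinases were lower instead. CDK12 fell by 0.42 on the log2 scale (SE 0.047, adjusted p = 1.59e-08), from 137 ± 4.30 to 103 ± 0.993 CPM. CDK13 was lower by a small margin at -0.14 (SE 0.055, adjusted p = 0.0302). Its call was lost without shNC library 1 (-0.14), shNC library 3 (-0.13), shNUF2 library 2 (-0.13) or shNUF2 library 3 (-0.12). CCNK overlaps CCDC85C on the opposite strand over 34855 bases.

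In the kinase module of Mediator, CDK8 had 268, 319 and 362 reads under shNC against 496, 456 and 568 under shNUF2, and rose from 20.0 ± 1.10 to 36.6 ± 1.36 CPM, a log2 fold change of 0.87 (SE 0.085, adjusted p = 1.05e-09). Its cyclin CCNC overlapped between the groups, with an interval from -0.15 to 0.15, and its paralog CDK19 also overlapped and did not pass the test (0.13, adjusted p = 0.198). CDK19 did pass when shNUF2 library 2 was left out (0.22, adjusted p = 0.0270, in a range of 0.0270 to 0.612 over the alternatives). Its log2 fold change was 0.058 without shNUF2 library 1 and 0.076 without shNC library 3. In TFIIH, which holds the kinase that activates other CDKs, CDK7 was higher at 0.20 (SE 0.062, adjusted p = 0.00629) while its cyclin CCNH was lower at -0.58 (SE 0.096, adjusted p = 8.10e-06). CCNH overlaps RASA1 on the opposite strand over 73516 bases. Of the genes of the elongation factor P-TEFb, the kinase gene CDK9 rose at 0.20 (SE 0.057, adjusted p = 0.00292) and CCNT1 at 0.21 (SE 0.046, adjusted p = 2.61e-04). CCNT2 passed only with genes kept at 1 CPM or more in every library (0.15, adjusted p = 0.0361) and without shNC library 2 (0.17, adjusted p = 0.0465, in a range of 0.0361 to 0.312). Without shNC library 1 its log2 fold change was 0.082, against 0.13 with all libraries. CDK10 fell from 103 ± 4.71 to 68.5 ± 3.64 CPM (-0.59, SE 0.056, adjusted p = 4.56e-10), and its activating cyclin CCNQ did not pass the test (0.13, adjusted p = 0.286, and 0.045 without shNUF2 library 1).

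The 7 other cyclins tested all passed the test, 4 higher and 3 lower, where 33.9% and 33.8% of all genes tested passed in these directions. CCNG2, an unconventional cyclin linked to cell cycle exit, was covered by 744, 816 and 830 reads in shNC versus 1185, 1114 and 1363 in shNUF2, or 50.5 ± 2.09 and 88.1 ± 2.46 CPM. The log2 fold change was 0.80 (SE 0.057, adjusted p = 1.97e-12), with the groups well apart. CCNG1, a p53 target of the same family, rose by less at 0.40 (SE 0.049, adjusted p = 4.54e-08), as did CCNI at 0.33 (SE 0.046, adjusted p = 4.88e-07). CCNP, a little studied cyclin, gathered 24, 48 and 39 reads in shNC and 85, 77 and 79 in shNUF2. Its groups did not overlap, but the low counts left a wide interval around the ratio of 2.51, 1.79 to 3.46 (log2 fold change 1.31, SE 0.23, adjusted p = 1.73e-05). CCNJ, CCNO and CCNY were lower, at -0.47, -0.44 and -0.42 on the log2 scale. CCNO, a cyclin of multiciliated cells, overlapped between the groups and lost its call without shNC library 1 (-0.28, adjusted p = 0.0583, in a range of 1.29e-04 to 0.0583 over the alternatives).

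CCNY recruits CDK14 to the plasma membrane, where the pair phosphorylates the Wnt co-receptor LRP6, and the 2 genes moved in opposite directions. CCNY fell from 52.0 ± 0.206 to 38.7 ± 1.46 CPM (SE of the log2 fold change 0.066, adjusted p = 3.04e-06). CDK14 had 56, 57 and 94 reads under shNC against 136, 97 and 137 under shNUF2. Its log2 fold change of 1.03 (SE 0.19, adjusted p = 2.68e-05) came without overlap but from few reads, and it ranged from 0.91 to 1.24 when single libraries were left out. CDK14 overlaps CLDN12 and AC002456.2 on the same strand, so strand-specific counting would not separate them. Of the related PCTAIRE kinases, CDK16 rose at 0.24 (SE 0.050, adjusted p = 1.52e-04) and CDK18 at 0.23 (SE 0.070, adjusted p = 0.00566), whereas CDK17 did not pass the test (0.062, adjusted p = 0.267). The CDK18 call was lost with limma on log2 FPKM at a pseudocount of 1 (0.17, adjusted p = 0.0607) and of 0.1 (0.19, adjusted p = 0.0582). CDK5, best known from neurons, was lower at -0.31 (SE 0.12, adjusted p = 0.0255). That call was lost without shNC library 1 (-0.29), shNUF2 library 2 (-0.23) or shNUF2 library 3 (-0.26). CDK20 was scarce, between 47 and 79 reads, and its interval of -0.41 to 0.53 was too wide to show a change of the size seen for CDK5.

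The 6 genes that were not tested were CCNA1, CCNB3, CCND2, CCNI2, CDK3 and CDK15. No library had more than 17 reads for any of them, and CDK15 had 0 reads in every library. CCNA1 and CCNB3 are known mainly from germ cells. With at most 1 read of CCNA1 against 988, 1205 and 1253 reads of CCNA2 in the shNC libraries, CCNA2 supplied nearly all A-type cyclin reads. CDK3 lies inside the readthrough gene TEN1-CDK3 on the same strand.

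Genes that act on these complexes were described from lists, against 33.9% higher and 33.8% lower over all genes tested. Of 16 subunits and modifiers of cyclin-CDK complexes, all tested, 8 rose and 4 fell, with a median log2 fold change of 0.23. SERTAD1, which binds CDK4, rose by 0.98 and CDC37, the chaperone partner that loads CDK4 onto HSP90, by 0.79. CDC25B, a phosphatase that activates CDK1, fell by 0.61, and CABLES1, which links CDKs to regulatory kinases, by 0.39, all on the log2 scale. Of 16 ubiquitin ligase parts that act on cyclins and inhibitors, 6 rose and 6 fell (median -0.10). FBXO4, an F-box protein described for cyclin D1 turnover, fell from 44.4 ± 1.24 to 16.9 ± 0.559 CPM (-1.39, SE 0.083, adjusted p = 5.32e-14), more than any member did. Of the genes of the anaphase-promoting complex in this list, the activators FZR1 (0.76) and CDC20 (0.45) were higher and the scaffold ANAPC1 (-0.74) and CDC27 (-0.13) lower.

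The factors downstream of the G1 kinases are described by 3 lists, beside which 33.9% of all genes tested were higher and 33.8% lower. Of 16 pocket proteins, E2F and DREAM factors, 10 fell and 2 rose, with a median log2 fold change of -0.32 against -0.013 over all genes tested. E2F5, a repressive E2F, fell by 0.86 and RBL1, a pocket protein, by 0.52, whereas MYBL2, the mitotic activator that joins MuvB, rose by 0.55 and LIN37 by 1.00, the last from at most 25 reads per library. Of 15 S phase genes 8 fell and 1 rose (median -0.12), and the list summed to between 652 and 668 FPKM with shNC and between 544 and 568 FPKM with shNUF2. The largest decrease was in MCM6 (-0.63) and MCM3 (-0.57), parts of the replicative helicase, and the 1 that rose was the licensing factor CDT1 (0.67). Of 15 genes of G2 phase and mitosis 8 rose and 5 fell (median 0.15), and their sums overlapped, 565 to 595 FPKM with shNC and 576 to 613 FPKM with shNUF2. UBE2C (0.56) and HMMR (0.45) rose most, and TOP2A (-0.67) and KIF23 (-0.37) fell most. Of the partners of transcription cyclins and kinases 12 of 14 were tested, 5 rose and 4 fell, with SUPT5H (0.55) and MED12 (0.46) highest and LARP7 (-0.35) and ERCC3 (-0.23) lowest. Of 10 relatives outside the naming rule 9 were tested, 4 rose and 1 fell. CDKL2 was covered by 1, 0 and 0 reads in shNC versus 15, 10 and 14 in shNUF2, a change from under the floor of 3 reads per library, and CDKL3 rose by 1.02. CDKL1 fell by 0.34. CDK11A was not tested and CDK11B did not pass (-0.12, adjusted p = 0.0630). How reads that match both of these near-identical copies were counted is not given in the sources used here, so their split is uncertain.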

How the data were processed

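RNA-seq covered 3 shNC and 3 shNUF2 libraries of cells labelled OVCAR3, grouped by their labels. Total RNA was extracted with TRIzol, and stranded mRNA libraries were sequenced on an Illumina NovaSeq instrument. The authors deposited raw read counts per gene and FPKM values, which equal the count scaled to the deposited gene length in kilobases and to the library total. The submitters' processing notes name cutadapt, HISAT and HTSeq without version, and GRCh38.p13. The annotation release and the strand setting of the counting are not given in the sources used here, and replicates were not pooled. The number of per-sample columns not used was 0.

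The test was run in edgeR 4.0.16 under R 4.3.3 (filterByExpr, TMM, quasi-likelihood test, all 6 libraries in one fit, no covariate), with Benjamini-Hochberg adjustment over 12874 genes. Standard errors are log2 fold changes over the root of F, intervals are at 95%, and CPM are TMM-scaled. The biological coefficient of variation was 4.93%. On simulated counts with 200 genes changed, the scripts were tested before use. Replicate pairs differed by 2.65 to 4.37 chi-square units per degree of freedom, so none was a duplicate. Alternatives were other scalings (RLE, upper quartile, library totals), other filters on low counts, DESeq2 1.42.0, limma 3.58.1 on log2(FPKM + 1) and log2(FPKM + 0.1), a replicate block and each library left out. Family shares used FPKM and exact permutation tests (scipy 1.17.1). Seed sites and promoter motifs were searched in GENCODE release 29 transcripts and RefSeq promoters, and the hairpin was read from the study's oligo list.

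The members, gene lists and tests were chosen with earlier results of these data known, so no pattern is given as independent support. Full values are given for NUF2, for members past a log2 fold change of 1, for the 12 members with the largest change that passed, and for a fixed cell cycle core of 20 genes. From each pathway list the 2 largest increases and the 2 largest decreases that passed are named. MCM6, MCM3, CDT1, UBE2C, HMMR, TOP2A, KIF23, CDC27 and the relatives outside the naming rule were named after their values were seen. No protein or other cell line was analysed here.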

Additional observations from a re-analysis of the deposited data

How the results depend on the processing

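Of the 25 members with full values, 19 kept their side of the threshold and direction in all 15 alternatives. With DESeq2, CCNE1, CCNB1, CCNB2, CDK13 and CDK5 lost their calls. CCNE1 lost its call in 7 of the alternatives, CCNB1 in 10 and CCNB2 in 7, and CDK1 gained one with a filter at 1 CPM. CCNA2, at -0.0019 on the log2 scale, changed sign to 0.0063 with RLE size factors, 0.020 with the 1 CPM filter, 0.0066 with DESeq2, and 0.025, 0.0099 and 0.017 without shNC replicate 2, shNUF2 replicate 1 and shNUF2 replicate 3. CDK2, at 0.034, went to -0.0033 with library totals only, -0.0069 and -0.0073 with limma at a pseudocount of 1 and 0.1, and -0.0035 without shNUF2 replicate 3. Neither gene passed the test under any of these, and with single libraries left out CCNA2 lay between -0.035 and 0.025 and CDK2 between -0.0035 and 0.084. The same replicate numbers did not mark pairs, with correlations of deviations of 0.030, 0.014 and -0.043, and with the replicate block 36 of the 37 called members kept their call, while CCNB2 stood at -0.16 (adjusted p = 0.0503). Taken singly, each alternative kept the calls of between 32 and 36 members, and no member was called in the opposite direction. CCNE1, CCNB1, CCNB2, CDK13, CDK5, CDK18 and CCNO each lost their call in at least 1 alternative.

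The counts past a log2 fold change of 1 depended on the treatment of low genes. For all genes, 1212 higher became 756 with the 1 CPM filter, where fewer genes were tested, and 430 with limma on log2(FPKM + 1), where the pseudocount shrinks low genes, and 536 lower became 206 with the latter. The 3 members higher became 1 with limma on log2(FPKM + 1), and 2 to 4 with single libraries left out. Not divided by length, the INK4 share of CDKN2C changed by -8.28 points in place of -9.81, and that of CDKN2D by 1.54 in place of 3.68. Leaving out single libraries gave 18 to 20 members higher and 14 to 17 lower, and a log2 fold change of NUF2 from -1.60 to -1.44. The 6 genes with at most 17 reads could not be tested at this depth, and with 3 libraries a group no share could pass an exact permutation test.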
